A study of Homo sapiens with 4 samples.

Results

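The genes described here are MT1E, MT1F, MT1G, MT1M, MT1X and MT2A, which encode metallothioneins, MTF1, which encodes the zinc-sensing transcription factor of these genes, and SLC30A1, which encodes the zinc exporter of the plasma membrane (ZnT1). They were chosen by gene symbol, as every row of the deposited transcript table carrying 1 of these 8 symbols, out of 23217 gene symbols in all. Each of the 8 was listed as a single transcript, so that summing over transcripts left their values as deposited and no isoform shares could be given. The cells were LV-M100, a lowly variable subclone of MDA-MB-231, a human triple-negative breast cancer line, and all libraries thus came from 1 clone transfected with Lipofectamine 2000. In the control condition, 1 library received the siRNA NC1 (IDT) and the other the BLOCK-iT Fluorescent Oligo (Life Technologies). In the SNRNP40-depleted condition, 1 library received siSNRNP40 #1 and the other siSNRNP40 #2. RNA was taken 48 h after transfection, cleared of ribosomal RNA and sequenced from 4 libraries.

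The authors pooled the 2 libraries of each condition into 1 value per transcript, in FPKM (a fragment count corrected for the length of the transcript and for how much was sequenced). Such levels can be compared only roughly between genes, since they depend on how fragments of similar transcripts were divided. Because of the pooling, no value below has a replicate error, no test was run on these pooled values, and depth is unknown. A fold is given as log2 of the level with SNRNP40 siRNA over the level with control siRNA. A gene was counted as higher or lower when its mean FPKM over both conditions was at least 1 and its absolute log2 fold was above 0.5, which describes these pooled libraries and is not a statistical call. The targeted gene itself, SNRNP40, was at 40.4 FPKM in control cells and at 6.12 FPKM in depleted cells. Markers of the line were present (VIM at 750 and 733 FPKM, CD44 at 116 and 141, in control and depleted cells), whereas the hormone receptor genes ESR1 (0.0199 and 0.0108 FPKM) and PGR (0.0117 and 0.0127) were nearly absent and the leukocyte gene PTPRC was listed at 0. Of the other genes taken as low in this line, CDH1 was at 0.0980 and 0.0423 FPKM. EPCAM, at 10.6 and 10.0, and GATA3, at 1.32 and 1.18, were detected.

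Metallothioneins are very small cytosolic proteins in which cysteines hold zinc and copper, and which also bind toxic cadmium. When free zinc increases, MTF1 binds DNA motifs called metal response elements upstream of metallothionein genes and of SLC30A1 and activates them, and SLC30A1 then moves zinc out of the cell. Metallothionein genes also respond to glucocorticoids and to oxidative stress.

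The human metallothionein genes form a cluster on chromosome 16. In the GENCODE annotation of GRCh37, which has the coordinates of hg19, MT2A (ENSG00000125148) occupies positions 56642496 to 56643409 and MT1X (ENSG00000187193), the farthest of the 6 from it, positions 56716382 to 56718108. MT1E (56659387 to 56661024), MT1M (56666571 to 56667893), MT1F (56691871 to 56693215) and MT1G (56700643 to 56701977) lie between them, and MT4 and MT3 lie on the other side of MT2A. MT1G is on the minus strand and the others are on the plus strand. All 6 genes have 3 exons in their principal transcript, with 20 cysteine codons in a coding sequence of 61 codons. The coding sequence of MT1E was 94.5% identical to that of MT1G and 92.3% identical to that of MT2A. MTF1 (ENSG00000188786) and SLC30A1 (ENSG00000170385) lie on the minus strand of chromosome 1, from 38275246 to 38325264 with 11 exons and from 211744910 to 211752503 with 2 exons. The quantified gene models need not be these, since the listed locus of SLC30A1 spans 3719 bases, against 7594 in GENCODE.

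Metal response elements share a core of 7 bases, which was searched as TGCACNC and TGCGCNC, where N is any base, on both strands of RefSeq promoter windows of GRCh38.p14 from 250 bases before to 50 bases after the start of a gene. A window was at hand for 4 of the 8 genes, MT2A, MT1X, SLC30A1 and MTF1. The windows of MT2A, MT1X and SLC30A1 are shown because they hold the letters of the motif that MTF1 binds, with each core in capitals, and no 2 cores overlapped within a window. MT1H, a metallothionein gene near MT1G that was barely detected, was added for contrast after its values were seen.
MT2A, chr16:56608334-56608633, plus strand: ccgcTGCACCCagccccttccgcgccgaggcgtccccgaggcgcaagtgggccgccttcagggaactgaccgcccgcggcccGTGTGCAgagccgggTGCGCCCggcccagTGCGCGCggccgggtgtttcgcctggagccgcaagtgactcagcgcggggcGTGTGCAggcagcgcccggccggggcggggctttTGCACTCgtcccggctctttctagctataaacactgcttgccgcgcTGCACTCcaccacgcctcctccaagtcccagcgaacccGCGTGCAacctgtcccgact
MT1X, chr16:56682220-56682519, plus strand: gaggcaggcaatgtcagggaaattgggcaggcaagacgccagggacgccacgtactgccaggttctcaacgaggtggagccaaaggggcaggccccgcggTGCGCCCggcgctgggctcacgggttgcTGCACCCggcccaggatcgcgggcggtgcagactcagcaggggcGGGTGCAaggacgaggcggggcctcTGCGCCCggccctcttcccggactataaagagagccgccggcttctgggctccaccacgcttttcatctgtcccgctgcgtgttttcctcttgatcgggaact
SLC30A1, chr1:211579112-211579411, minus strand: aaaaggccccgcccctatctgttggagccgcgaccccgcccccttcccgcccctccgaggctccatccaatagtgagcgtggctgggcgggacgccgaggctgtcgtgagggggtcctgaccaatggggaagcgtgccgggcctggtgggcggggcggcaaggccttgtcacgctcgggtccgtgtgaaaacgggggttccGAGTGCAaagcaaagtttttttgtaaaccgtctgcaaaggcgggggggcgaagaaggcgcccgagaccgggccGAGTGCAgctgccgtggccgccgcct
MT1H, chr16:56669564-56669863, plus strand: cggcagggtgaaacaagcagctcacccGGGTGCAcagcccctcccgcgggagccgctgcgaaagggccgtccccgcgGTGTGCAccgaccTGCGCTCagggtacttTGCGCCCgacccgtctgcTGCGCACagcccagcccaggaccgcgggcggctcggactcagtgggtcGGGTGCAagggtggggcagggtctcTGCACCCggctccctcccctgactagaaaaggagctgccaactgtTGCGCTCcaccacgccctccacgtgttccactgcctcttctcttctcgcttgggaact

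The window of MT2A held 8 cores, 5 in the direction of the gene and 3 on the opposite strand, a number reached by 7 of 35116 promoter windows of this length (0.0199%). That of MT1X held 4 cores, and at least as many were found in 0.601% of all windows. SLC30A1 had 2 cores, both on the opposite strand, and 8.6% of windows had at least 2. The window of MTF1 itself held 0 cores, whereas 29.6% of all windows held at least 1. MT1H had 8 cores, as many as MT2A, although its RNA was listed at 7.82e-05 FPKM in control cells and 0.170 after depletion. Among the 4 members with a window, the one with more cores also had the higher level, from MT2A through MT1X and SLC30A1 to MTF1. The order did not extend to the other metallothionein genes with a window, since MT1H had 8 cores and MT1B and MT4 had 3 each, and MT1B was at 3.55e-05 and 6.83e-05 FPKM and MT4 was listed at 0. With so few genes this is a description, and a match to these letters is not evidence of binding.

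The metallothionein RNA of these cells was dominated by MT2A. Its level was 977 FPKM in control cells and 945 FPKM in depleted cells, a log2 fold of -0.05. By summed FPKM it stood at rank 54 of all gene symbols in control cells and at rank 61 after depletion. MT2A thus stayed among the most abundant messages of the cell in both conditions, with a change of -3.28% relative to control cells.

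MT1E, the main metallothionein of class 1 in these cells, was the member with the largest difference in level. It was at 212 FPKM in control cells and at 301 FPKM in depleted cells, a difference of 89.0 FPKM and a ratio of 1.42 (log2 fold 0.51). Its rank was 314 in control cells and 204 after depletion. Its log2 fold lies just past the limit of 0.5. Few highly expressed genes differed this much, since of 449 genes that had 1 listed transcript and averaged at least 100 FPKM, 12 (2.67%) were higher by more than the limit, MT1E included, and 6 (1.34%) were lower.

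MT1X and MT1F, which encode metallothioneins of the same class, were present at lower levels. MT1X had 42.8 FPKM in control cells and 49.4 after depletion (log2 fold 0.21), a ratio of 1.16. MT1F had 7.29 and 9.90 FPKM (log2 fold 0.44), a ratio of 1.36. Both were higher after depletion by less than the limit. Among genes of 1 listed transcript averaging 20 to 100 FPKM, the level of MT1X, log2 folds from -0.42 to 0.33 span the middle 90% of genes, and MT1X lies inside. For those from 5 to 20 FPKM the span is from -0.46 to 0.40, and MT1F lies above it. MT1F lies inside the wider span of genes at short loci, given below.

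MT1G and MT1M were near the lower end of what the table resolves and did not reach a mean FPKM of 1. MT1G was listed at 0.663 FPKM in control cells and 1.05 after depletion. MT1M was listed at 0.136 FPKM in control cells and 0.00415 after depletion, and no fold is read from values this low. MT1G, which zinc induces in many cell types, was thus below MT1F, MT1X, MT1E and MT2A in both conditions.

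MTF1 was expressed at a low level, with 2.29 FPKM in control cells and 3.42 after SNRNP40 depletion, a ratio of 1.49 (log2 fold 0.58). It was past the limit, but at this level folds scatter more. Of 2322 genes of 1 listed transcript averaging 1 to 5 FPKM, 287 (12.4%) were higher past the limit and 211 (9.09%) were lower. SLC30A1 had 5.79 FPKM in control cells and 5.15 after depletion (log2 fold -0.17). That fold lies inside the span given above for genes of 1 listed transcript averaging 5 to 20 FPKM, from -0.46 to 0.40. A part of MTF1 in the value of SLC30A1 was not tested.

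**Figure D1:**
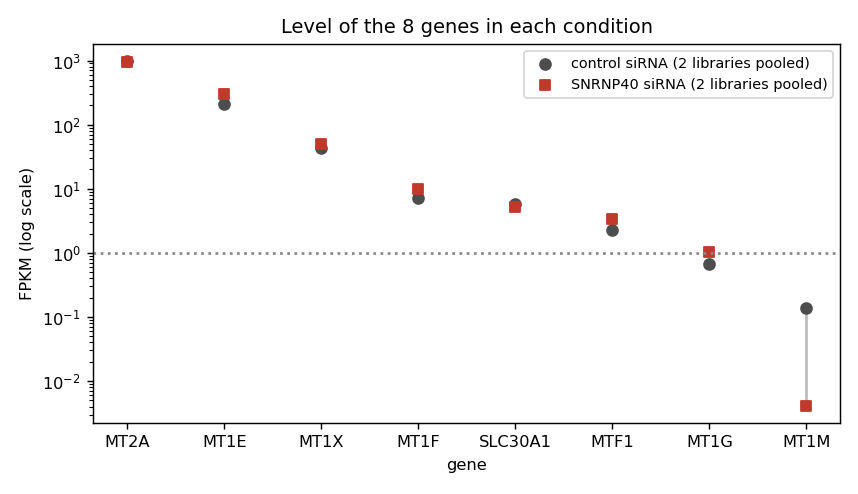
Level of each of the 8 genes in FPKM (vertical axis, log scale) with control siRNA (grey circles) and with SNRNP40 siRNA (red squares), each point being 1 pooled value of 2 libraries with no error. The genes run from 977 FPKM for MT2A in control cells to 0.00415 for MT1M after depletion, and the dotted line marks an FPKM of 1.

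Of the 8 genes, 6 had a mean FPKM of at least 1. Among these 6, 2 (MT1E and MTF1) were higher past a log2 fold of 0.5, against 5.24% of all 12334 genes that met the same minimum, and 0 were lower, against 5.06% of all genes. The count of 2 was 1 with a pseudocount of 1 FPKM, where the log2 fold of MTF1 was 0.43, and 1 when a mean of 5 FPKM was required. None of the 6 was past a log2 fold of 1 in either direction, where 0.811% of all genes were higher and 0.657% lower. The median log2 fold of the 6 genes was 0.33 and that of all 12334 genes 0.0034, with 4 of the 6 above 0. With 6 genes and 1 pooled value per condition, these counts describe the libraries and give no evidence that the genes respond as a group.

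**Figure D2:**
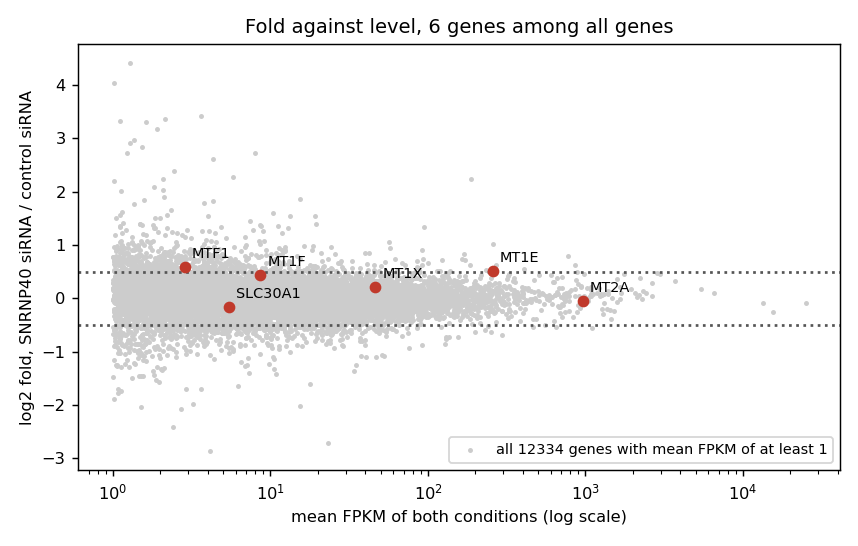
Log2 fold of summed FPKM, SNRNP40 siRNA over control siRNA (vertical axis), against mean FPKM (horizontal axis, log scale) for 12334 genes (grey) and the 6 genes that met the minimum (red). Dotted lines mark log2 folds of -0.5 and 0.5, and MT1E (0.51) and MTF1 (0.58) lie above the upper line while MT2A (-0.05) lies close to 0.

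Metallothionein genes are short, and folds at short loci were therefore looked at apart. Of 261 single-transcript genes whose listed locus spans under 2 kb, 40 (15.3%) were higher past the limit and 14 (5.36%) were lower, against 5.77% and 5.32% of all 7052 single-transcript genes. The 261 genes had a median log2 fold of 0.08, and their middle 90%, from -0.51 to 0.83, holds MT1E and MT1F. Of the 95 short-locus genes with a mean FPKM of at least 20, 4 were higher and 0 lower. The 95 had a median log2 fold of 0.12, with the middle 90% between -0.30 and 0.45. The 4 higher genes, named after their values were seen, were ISG15 (log2 fold 0.83), the pseudogene RPL13AP20 (0.60), the small nucleolar RNA gene SNORA32 (0.55) and MT1E. MT1X and MT2A lie within the middle 90% of these 95 genes, and MT1E lies above it. Whether locus length has a part in the value of MT1E was not tested.

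Because metallothionein messages are alike, the assignment of fragments among them bears on each single value. At a length of 100 bases, every window of the mRNAs of MT1E, MT1F, MT1G, MT1M and MT2A was absent from all other annotated genes, and 78% of those of MT1X were, the rest being shared with an unnamed annotated gene (ENSG00000259827). At a length of 50 bases, the unique share was 94.7% for MT1E, 93.9% for MT1F, 88.9% for MT2A, 85.4% for MT1M, 79.8% for MT1G and 49% for MT1X. MT1E shared 50-base windows with MT1F and MT1G but with no transcript of MT2A. The read length is not given in the sources used here, and fragments with mismatches were not considered, so the exchange of fragments between these genes was not tested.

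Summing the family leaves the total less affected by that question, but not free of it. FPKM is scaled by transcript length, and the annotated mRNA of MT1E has 704 bases against 401 for MT2A. Over all 15 listed metallothionein genes, the summed level was 1244 FPKM with control siRNA and 1311 with SNRNP40 siRNA, a log2 fold of 0.08. The family took 0.241% of all FPKM in control cells and 0.254% after depletion. Without MT2A the sum was 267 and 367 FPKM, a log2 fold of 0.46, and without both MT2A and MT1E it was 54.6 and 65.2 FPKM (0.26). The total was therefore nearly equal in the conditions, while the part outside MT2A was 1.37 times as large after depletion, mostly through MT1E.

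The make-up of the pool differed accordingly. MT2A made up 78.5% of metallothionein FPKM in control cells and 72% after depletion, MT1E 17.1% and 23%, and MT1X 3.44% and 3.77%. The other 12 genes together made up 0.948% and 1.2%. MT2A was 4.6 times as abundant as MT1E in control cells and 3.13 times after depletion. By contrast, MT1E and MT1F kept nearly the same proportion, with MT1E 29.2 times as abundant in control cells and 30.5 times after depletion. Class 1 genes did not all keep their proportions. MT1E was 4.96 times as abundant as MT1X in control cells and 6.1 times after depletion, and MT1X was 5.87 and 5 times as abundant as MT1F. In RNA of whole cultures, a higher level in every cell and a larger number of cells with a high level cannot be told apart.

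**Figure D3:**
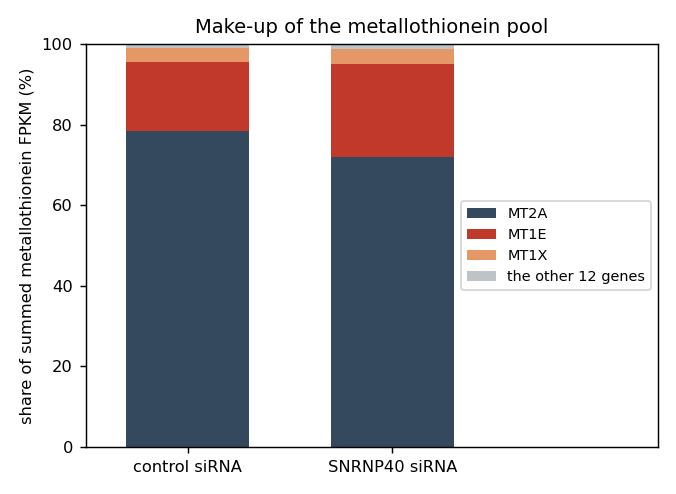
Share of the summed metallothionein FPKM (vertical axis, percent) taken by MT2A, MT1E, MT1X and the other 12 listed genes with control siRNA and with SNRNP40 siRNA, 1 pooled value per condition. The share of MT1E is 17.1% in the control bar and 23% in the depleted bar, and that of MT2A is 78.5% and 72%.

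The other 9 listed metallothionein genes contributed 3.70 FPKM in control cells and 4.83 after depletion. Only MT1A reached a mean FPKM of 1, with 2.15 and 2.09 FPKM (log2 fold -0.04). MT1JP, an untranslated relative, had 0.934 and 0.746 FPKM, and the pseudogene MT1IP had 0.522 and 1.07. The pseudogenes MT1DP and MT1L and the gene MT1H were at 0.578, 0.183 and 0.170 FPKM after depletion, and at 0.0985 FPKM or less in control cells. MT1B was close to 0 in both conditions. MT3, the brain-enriched form, and MT4, the form of stratified epithelium, were listed at 0.

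Along the chromosome, abundance did not follow position. MT1E starts 17.1 kb from the start of MT2A, and MT1M, 24.1 kb from it, was almost undetected. MT1F and MT1X, at 49.4 and 73.9 kb, had 7.29 and 42.8 FPKM in control cells, with the nearly silent MT1H, at 61.2 kb, between them. Of 8 genes examined on either side of the cluster, 6 reached a mean FPKM of 1 and 0 were past the limit. Over all 12334 genes, 5.24% were higher past the limit and 5.06% lower. The median log2 fold of the 6 was -0.12, with 5 of 6 below 0, against 49.5% of all genes. The nearest of the 6 on each side were BBS2, a gene of the ciliary BBSome, at 13.7 and 10.3 FPKM (log2 fold -0.41), and the nuclear pore gene NUP93 at 17.4 and 16.8 (-0.05). The 3 with the highest level were NUDT21 (-0.17), OGFOD1 (-0.07) and NUP93.

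**Figure D4:**
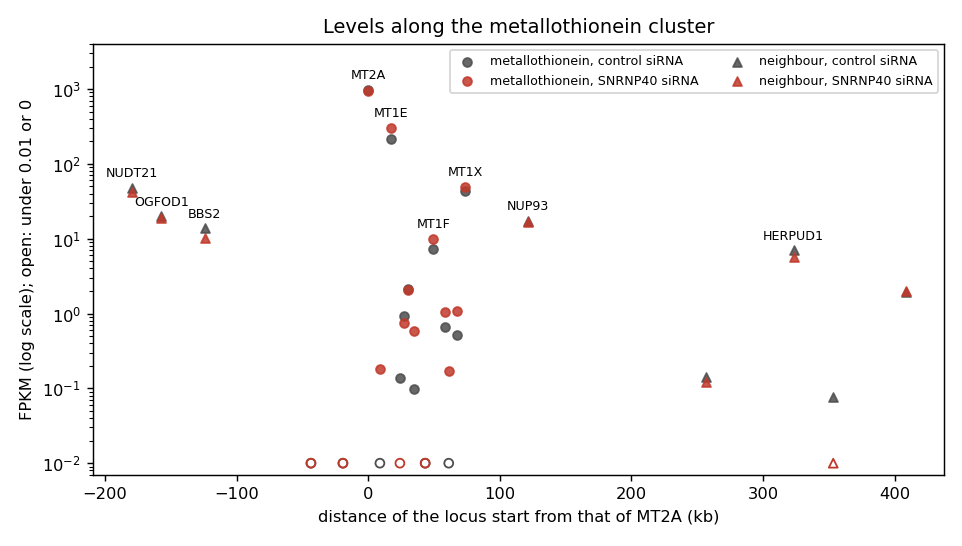
FPKM (vertical axis, log scale) of metallothionein genes (circles) and of flanking genes (triangles) against the distance of the start of each listed locus from that of MT2A in kb, with control siRNA (grey) and SNRNP40 siRNA (red). Open symbols at the bottom stand for values under 0.01 or listed at 0, and the separation of both colours is visible for MT1E (212 and 301 FPKM, at 17.1 kb) but not for MT2A (977 and 945 FPKM, at 0 kb).

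Zinc reaches the cytosol through importers of the SLC39 (ZIP) family and leaves it, to the outside or into organelles, through exporters of the SLC30 (ZnT) family. Apart from SLC30A1, 23 transporter genes were listed and 16 had a mean FPKM of at least 1. Of these 16, 2 were higher past the limit and 2 were lower, against 5.24% and 5.06% of all 12334 genes. Those past the limit were all importers, but the 16 hold 11 importers and only 5 exporters. The median log2 fold of the 16 was -0.03, and none was past a log2 fold of 1.

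Among importers, SLC39A1 (ZIP1, of the plasma membrane; chromosome 1, 153931586 to 153936013) had 69.7 FPKM in control cells and 116 after depletion, a log2 fold of 0.74. SLC39A7 (ZIP7, which releases zinc from the endoplasmic reticulum; chromosome 6, 33168644 to 33172214) had 96.1 and 137 FPKM (0.52). It was the most abundant importer, and its value is a sum of 2 transcripts with signal, at log2 folds of 0.37 and 0.90, and of 10 on alternative contigs listed at 0. Both genes were higher by about as much as MT1E on the log2 scale or more.

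SLC39A10 (ZIP10; chromosome 2, 196521950 to 196602424), which MTF1 is known to repress in mouse cells, had 24.6 FPKM in control cells and 14.7 after depletion, a log2 fold of -0.74. At 205 of the 12334 genes, the log2 fold was at least as low as that of SLC39A10, itself included. Whether MTF1 has a part in the value of SLC39A10 was not tested. SLC39A11 (chromosome 17, 70642088 to 71088827) had 3.62 and 2.41 FPKM (-0.59), with 1 of its 2 transcripts higher (0.728 and 1.39 FPKM) and the other lower (2.89 and 1.02). The remaining 7 importers above the minimum lay between -0.21 (SLC39A4) and 0.29 (SLC39A13), with SLC39A14, which also carries iron, at 30.8 and 29.8 FPKM (-0.04).

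Exporters differed little between the conditions. Those of highest level were SLC30A9 (60.9 and 56.4 FPKM, log2 fold -0.11), SLC30A5 (28.2 and 24.5, -0.20), which loads zinc into the secretory pathway, and SLC30A7 (19.4 and 19.1, -0.02), which does the same. All 5 measured exporters besides SLC30A1 lay between -0.30 and 0.09.

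**Figure D5:**
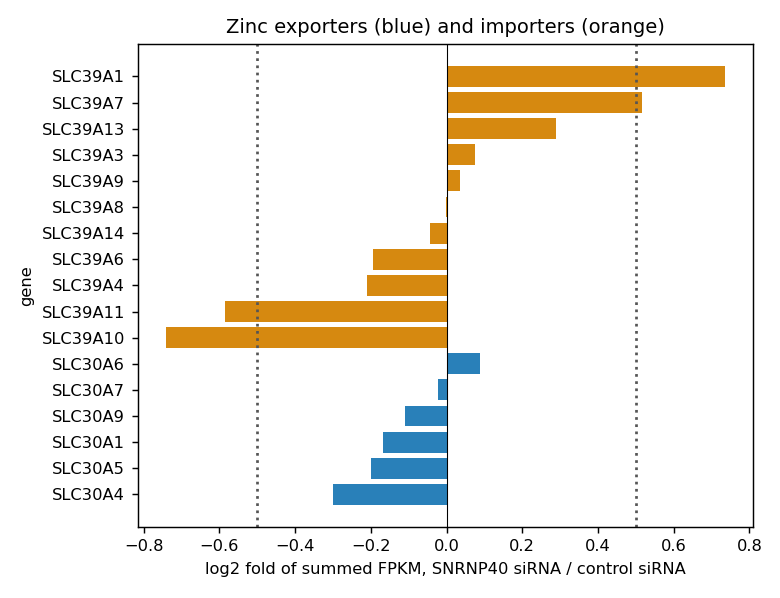
Log2 fold of summed FPKM, SNRNP40 siRNA over control siRNA (horizontal axis), for 6 zinc exporters including SLC30A1 (blue) and 11 importers (orange) with a mean FPKM of at least 1; bars start at 0 and dotted lines mark -0.5 and 0.5. Only the importers SLC39A1 (0.74), SLC39A7 (0.52), SLC39A11 (-0.59) and SLC39A10 (-0.74) lie beyond the dotted lines.

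Factors known to act on metallothionein promoters differed less than MTF1. NR3C1, the glucocorticoid receptor, had 40.0 FPKM in control cells and 42.7 after depletion (log2 fold 0.09). NFE2L2, the regulator of the oxidative stress response, had 36.5 and 36.2 (-0.01), and USF2 had 35.1 and 36.4 (0.05). Of the 8 factors examined, MTF1 was the only 1 past the limit, and the other 7 lay between -0.22 (SP1) and 0.24 (USF1). Over all 12334 genes, 5.24% were higher past the limit and 5.06% lower. MTF1 also had the lowest level of the 8, where folds scatter more. With a pseudocount of 1 FPKM its log2 fold was 0.43, short of the limit.

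Gene groups that share inducers with metallothioneins were compared on the same scale. Over all 12334 genes, 5.24% were higher past the limit and 5.06% lower, so low counts in groups this small carry little weight. Of 8 glucocorticoid-related genes above the minimum, 0 were higher and 1 was lower, ERRFI1 (90.7 and 58.0 FPKM, log2 fold -0.65), while FKBP5, a classical target of the receptor, had 29.1 and 27.1 FPKM (-0.10). Of 8 heat shock genes, 0 were past the limit. HSPA8 was at -0.07, HSP90AA1 at -0.39, and HSPA1B, whose reads are hard to tell from those of HSPA1A, at 0.02. Of 8 genes of the oxidative stress response, 0 were higher and 2 were lower, the haem oxygenase gene HMOX1 (8.47 and 5.95 FPKM, -0.51), which cadmium and other metals induce, and the cystine importer gene SLC7A11 (19.6 and 12.3, -0.68). The most abundant of that group, TXNRD1, NQO1 and SRXN1, were at -0.09, -0.24 and 0.19.

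Interferon-stimulated genes, which transfected RNA can induce, differed in the same libraries. Of 8 such genes, 5 were higher past the limit and 0 were lower, against 5.24% and 5.06% of all 12334 genes. The median log2 fold of the 8 was 0.62. ISG15, a ubiquitin-like modifier, had 122 and 217 FPKM (0.83), IFIT3 124 and 207 (0.74), IFIT1 93.1 and 153 (0.71), IFI6 16.2 and 26.4 (0.70) and OAS1 1.60 and 2.33 (0.54). Their part in the values of MT1E and MTF1 was not tested.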

How the data were processed

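RNA was measured in 4 libraries of LV-M100 cells, 2 per condition. Per the submitters' processing notes, cutadapt 1.2.1 served for trimming, TopHat2 2.0.8 for mapping to hg19, and Cufflinks and Cuffdiff 2.0.2 for quantification. The deposited FPKM values are the authors' estimates per transcript, scaled for transcript length and mapped fragments and pooled over the libraries of a condition, so a value depends on how fragments of similar transcripts were divided. The fold changes, test statistics, p-values and q-values of the deposited comparison were not used. FPKM was summed per gene symbol. Genes with a mean of at least 1 FPKM and values above 0 in both conditions were kept (12334), and a log2 fold above 0.5 in size was counted. No test was run. The members and lists were chosen with earlier results of these data known. The lists were zinc, copper and iron handling, oxidative stress, heat shock, glucocorticoid and interferon response, promoter factors, cluster neighbours and line markers. Of each list, genes past the limit and the 3 of highest level are named, and all metallothionein genes. A further gene beside the cluster was left out of that list and is not reported here.

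Gene models are from GENCODE release 44 mapped to GRCh37, taking the principal transcript. They can differ from the models behind the FPKM values, as for SLC39A1, whose listed locus spans 8601 bases against 4428 in GENCODE. Identity is that of global alignments, and windows of 50 and 100 bases were matched exactly to all annotated transcripts. Promoter windows are from RefSeq, GRCh38.p14. The summing and counting were run on simulated data for this comparison, over 12264 genes with 200 changed, of which 191 met the minimum. All 191 were recovered and 0 others were counted. The changes were set without noise, so this outcome was fixed in advance. It checks the code only and says nothing about how reliable the limit is in these libraries. Alternatives changed the pseudocount, scaling, summing, filter and limit. Python 3.11.15, pandas 2.3.3 and biopython 1.88 were used.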

Additional observations from a re-analysis of the deposited data

How the results depend on the processing

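No paired analysis was possible because each condition has 1 deposited value per transcript, without replicate numbers. For the same reason no run without 1 library was made, and depth is unknown. A log2 value was counted as moved when it changed by at least 0.1, and a count when it changed by more than 1.5 times.

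With a pseudocount of 1 FPKM, the log2 fold became 0.43 for MTF1, which is then short of the limit, 0.30 for MT1G (0.66 without it) and -0.18 for MT1M (-5.04 without it), and 1 FPKM exceeds the mean level of both MT1G and MT1M. The log2 fold of MT1E stayed between 0.50 and 0.53 under every alternative, so it is close to the limit throughout. MT2A stayed between -0.05 and -0.02. The log2 ratio of the upper quartiles was -0.0248 and the median log2 fold of all genes 0.0034. The summed family was at 0.46 without MT2A, against 0.08 with it. The number of members past the limit, 2, was 1 with the pseudocount, 4 without a filter, 1 when a mean of 5 FPKM was required and 0 at an absolute log2 fold above 1. The number of zinc transporters past the limit, 4, was 0 at an absolute log2 fold above 1 and lay between 3 and 6 otherwise. Leaving out alternative contigs, an alternative chosen after seeing the data, left it at 4.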

Other observations

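Genes that handle copper and iron were examined beside those of zinc, since metallothioneins also bind copper. Of all 12334 genes, 49.5% had a log2 fold below 0, 5.24% had one above 0.5 and 5.06% had one below -0.5. Of 8 copper genes with a mean FPKM of at least 1, 0 were past a log2 fold of 0.5, and 5 were below 0, a share near that of all genes. SOD1, the copper and zinc superoxide dismutase, had 291 FPKM in control cells and 244 after depletion (log2 fold -0.25), the mitochondrial copper chaperone COX17 had 69.2 and 77.4 (0.16), and COMMD1 had 33.8 and 31.8 (-0.09). Of 8 iron genes, 7 were below 0 and 1, HMOX1, was past the limit. The ferritin genes FTL and FTH1, whose products store iron, had 1425 and 1165 FPKM (-0.29) and 442 and 330 FPKM (-0.42), and the transferrin receptor gene TFRC had 116 and 111 (-0.06). Ferritin genes have many processed copies in the genome, so that their values are uncertain.

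Of the 5 markers of the line, CAV1 (caveolin) was lower past the limit, with 285 and 198 FPKM (-0.53), and MSN was at -0.07. Among 5 genes taken as low in this line, EPCAM, an epithelial marker, was at 10.6 and 10.0 FPKM and GATA3 at 1.32 and 1.18, while CDH1 was at 0.0980 and 0.0423. Among 5 markers of other cell types, the endothelial gene PECAM1 had 0.922 FPKM in control cells (log2 fold 0.38), the fibroblast gene COL1A1 had 0.0990 and 0.177, KRT5 had 0.0129 and 0, and ALB and PTPRC were listed at 0.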
